A study of Mus musculus with 20 samples.

Results

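The transcripts of cytochrome c oxidase, its assembly factors and the carrier that feeds it were measured in the brains of mice with or without inducible HIV-1 Tat that received methamphetamine (Meth) or saline (Sal). Members were the probes whose RefSeq transcript carries a symbol that starts with Cox and a digit, or is Sco1, Sco2, Surf1, Cycs or Cyct. The rule found 43 probes of 32 genes among 55681 probes on the array, of which 27656 had a symbol, for 20972 symbols in all. By role these were 17 nuclear subunits with 20 probes, 12 assembly factors with 16 probes, the carrier genes Cycs and Cyct with 4 probes and the supercomplex factor Cox7a2l with 3 probes. No named probe stood for the subunits encoded in mitochondrial DNA.

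Cytochrome c oxidase, complex IV of the respiratory chain, takes electrons from cytochrome c, reduces oxygen to water and pumps protons across the inner mitochondrial membrane. Its catalytic core is encoded in mitochondrial DNA, a ring of nuclear-encoded subunits surrounds it, and several of these have isoforms preferred by muscle, lung or testis. The core is inactive until chaperones insert the mitochondrial subunits into the membrane, deliver copper and supply heme a, and in brain it works mostly for the ATP supply of neurons.

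There were 4 groups of 5 male mice on a C57BL/6J background. Tat- mice carried the Tet-binding protein under the GFAP promoter alone, and Tat+ mice also carried the Tat transgene under a tetracycline-responsive promoter, so that Tat could be induced only in GFAP-expressing cells, mainly astrocytes. Per the methods, all mice of both genotypes received doxycycline at 100 mg/kg daily for 7 days together with saline or 2 mg/kg Meth, then abstained for 7 days, and all of them, the saline groups included, were challenged with 1 mg/kg Meth 1 h before harvest. The labels give an age of 6 to 7 weeks, a brain hemisphere as the tissue and 24 h since the last injection, while the methods give 3 to 5 months and the caudate putamen. All 9 striatal marker genes, among them Drd1, Drd2, Penk and Ppp1r1b, were well above background on all 20 arrays, with a summed log2 level of 19.89 to 20.26, whereas 1 of 4 cortical markers was.

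Values are log2 signals after each array was scaled to a common 75th percentile, and each value belongs to its own probe, so levels of different probes are not compared. Of the 43 member probes, 40 probes of 30 genes passed the filter on low signal, and all 40 were well above background on all 20 arrays with none saturated. The 3 others, the second Cox17 probe and the probes of the testis isoforms Cyct and Cox8c, were not well above background on any array. The 5 Tat-/Meth arrays filled a slide of their own, slide 1, so that Meth treatment and slide cannot be told apart in any comparison with that group. Slide 2 held the 5 Tat-/Sal arrays with Tat+/Meth 1 to 3, and slide 3 held the 5 Tat+/Sal arrays with Tat+/Meth 4 and 5. The scanner's bright corner spots lay at 14.67 to 15.06 on slide 1 and at 16.79 to 17.44 on the other slides, and the 75th percentile before scaling averaged 9.73 in Tat-/Meth and 10.15 in Tat-/Sal. Without scaling, each log2 change in that comparison was therefore 0.42 lower than the value given, which turns the sign of small rises. In whole tissue, fewer cells of a type and less RNA per cell cannot be told apart.

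The first question was how Meth changed these transcripts without Tat. In Tat-/Meth vs. Tat-/Sal, 25 of the 40 member probes changed at an adjusted p below 0.05 (limma, Benjamini-Hochberg over all 31516 probes tested), with 16 higher and 9 lower. Their share of 62.5% stood beside 50.3% of all probes, 28.1% higher and 22.2% lower. The median log2 change was 0.15 over the members and 0.10 over all probes. The 3 changes above 2-fold were all falls, in the copper chaperone Cox17, the subunit isoform Cox4i2 and probe 2 of the heme a synthase Cox15, beside 10.9% of all probes that fell by this measure. The 5 Tat-/Meth arrays did not overlap the 5 Tat-/Sal arrays for 24 member probes, 16 higher and 8 lower, against 36.6% of all probes. The direction rested on scaling for 9 of the 16 higher probes, which turned below 0 without it. Because each change was 0.42 lower without scaling, none of the 9 lower probes could turn, so their direction was not tested by it.

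**Figure D1:**
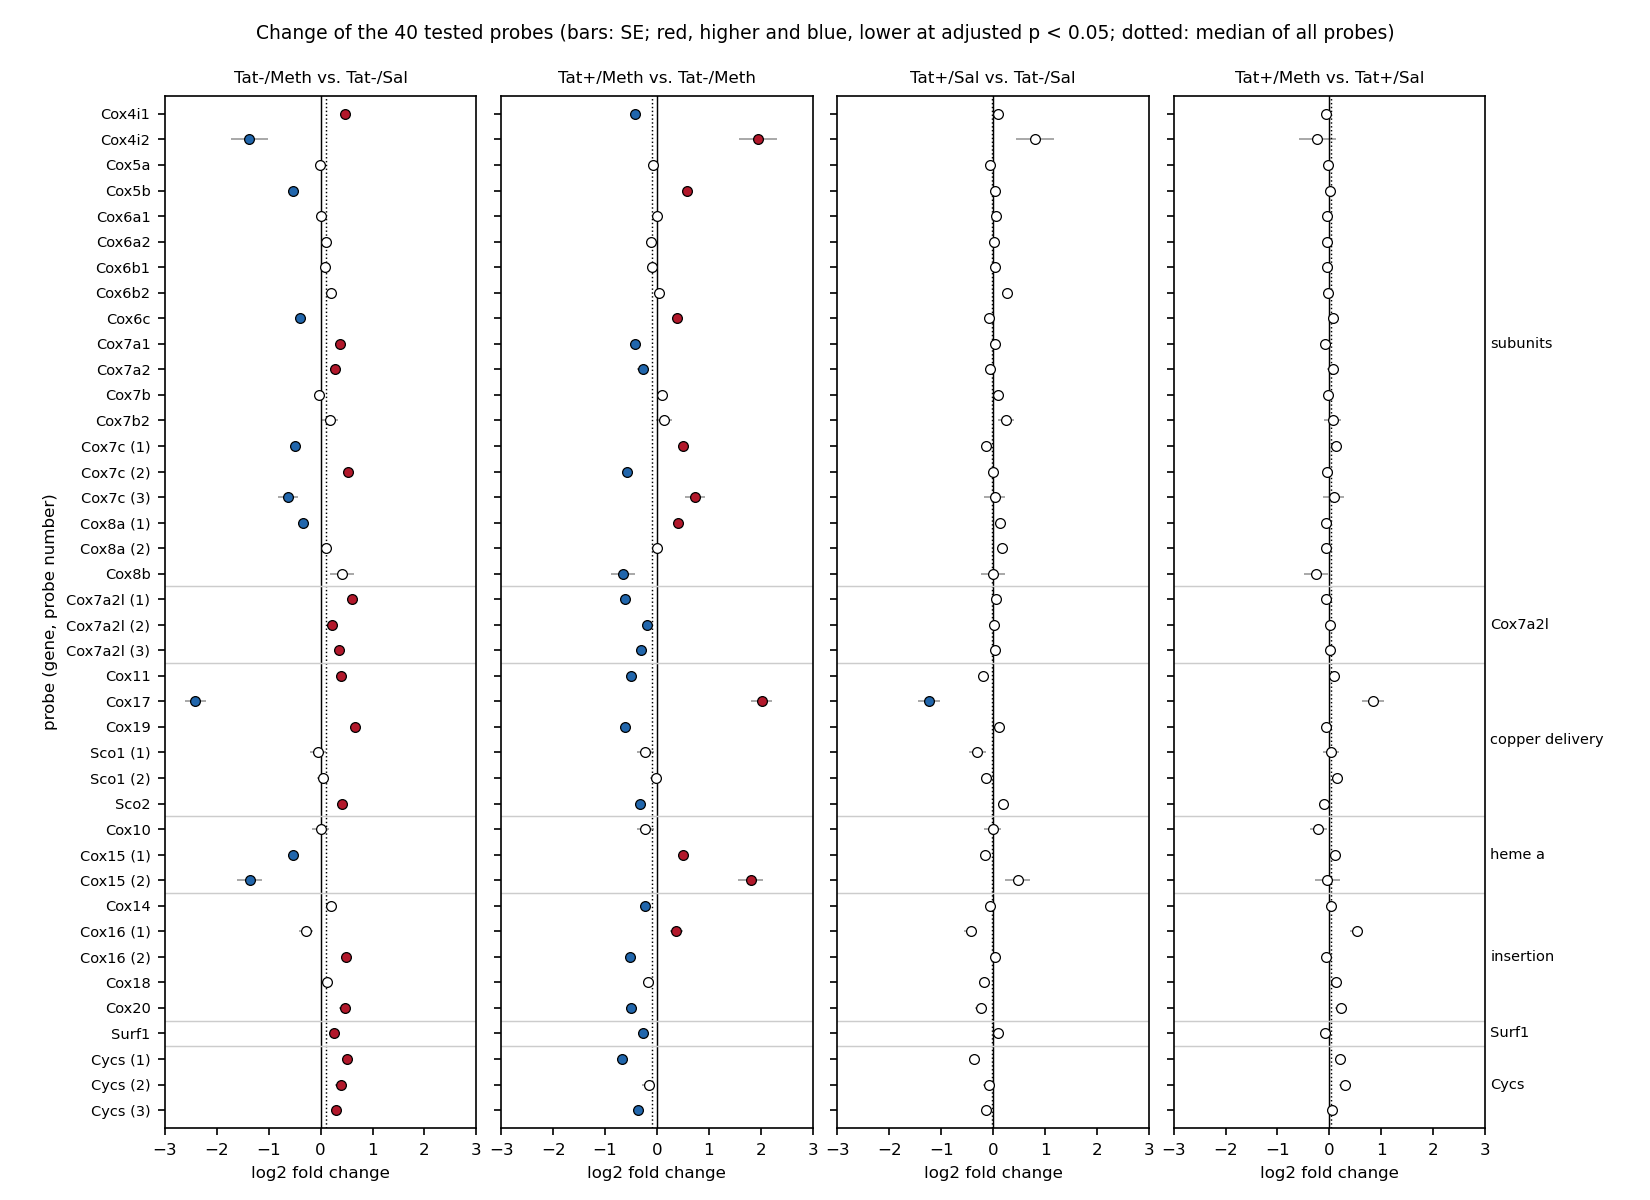
Log2 change with its standard error (bars) of the 40 tested member probes, 1 row each and ordered by role, in 4 comparisons. From left, Tat-/Meth is set against Tat-/Sal, Tat+/Meth is set against Tat-/Meth, Tat+/Sal is set against Tat-/Sal, and Tat+/Meth is set against Tat+/Sal. Red marks a higher and blue a lower level at an adjusted p below 0.05, open circles are not called, and the dotted line is the median of all probes tested. The panels hold 25, 27, 1 and 0 called probes, and 9 of the 16 red points of the first panel lie below 0 when arrays are not scaled.

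Of the 13 probes of ubiquitous subunits, those that every tissue uses, 3 rose, 5 fell and 5 did not pass the test in Tat-/Meth vs. Tat-/Sal, beside the 28.1% higher and 22.2% lower of all probes. Without scaling, all 5 falls and none of the 3 rises passed the test, but each change is 0.42 lower there, which favours falls. Cox4i1, the common isoform of the subunit at the ATP-binding regulatory site, lay at 16.80, 16.76, 16.89, 16.70 and 16.85 in Tat-/Sal and at 17.29, 17.21, 17.29, 17.27 and 17.24 in Tat-/Meth. All Tat-/Meth arrays lay above all Tat-/Sal arrays, by 0.46 ± 0.05 (SE, adjusted p = 4.43e-07), while without scaling the difference was 0.04 (adjusted p = 0.715). Cox5b, a peripheral subunit that binds zinc, went the other way, with 16.77, 16.71, 16.76, 16.68 and 16.79 in Tat-/Sal and 16.24, 16.23, 16.11, 16.09 and 16.40 in Tat-/Meth. The groups did not overlap, and Cox5b fell by 0.53 ± 0.07 (adjusted p = 2.78e-06). Cox6c also fell, from 16.91 ± 0.09 (SD, n = 5) to 16.51 ± 0.10, with non-overlapping groups and a log2 change of −0.40 (adjusted p = 0.000502). Cox7a2 rose from a median of 15.53 (15.37 to 15.77) to one of 15.78 (15.73 to 15.997), by 0.28 (adjusted p = 0.0311), although its groups overlapped and its change was −0.14 without scaling. Cox5a, Cox6a1, Cox6b1 and Cox7b had no called change on the scaled values, while Cox7c and Cox8a, which have several probes, are described below. Cox6a1, the common counterpart of the muscle isoform Cox6a2, had a median of 18.27 (18.15 to 18.47) in Tat-/Sal and of 18.30 (18.27 to 18.35) in Tat-/Meth, and the 95% interval of its change ran from −0.14 to 0.14 (adjusted p = 0.978). That value depended on scaling, being −0.42 without it (adjusted p = 1.74e-05) and 0.52 with quantile normalization (adjusted p = 1.15e-06). Cox5a differed by −0.01 (adjusted p = 0.94), Cox6b1 by 0.09 (adjusted p = 0.19) and Cox7b by −0.03 (adjusted p = 0.706). Cox7b read 16.03, 16.13, 16.13, 16.001 and 16.21 in Tat-/Sal, 16.08, 16.17, 16.06, 15.98 and 16.07 in Tat-/Meth, 16.16, 16.27, 16.27, 16.13 and 16.14 in Tat+/Sal and 16.11, 16.29, 16.15, 16.02 and 16.24 in Tat+/Meth. Its 4 groups overlapped, and it was called in none of the 6 comparisons.

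Tissue isoforms were present in these extracts at levels well above background, except for Cox8c. Cox4i2, the isoform of Cox4 known from lung and linked to oxygen sensing, read 11.21, 10.82, 11.21, 11.07 and 11.23 in Tat-/Sal and 9.71, 9.72, 9.77, 9.70 and 9.77 in Tat-/Meth. In Tat+/Sal it read 11.55, 11.03, 11.10, 13.35 and 12.54, and in Tat+/Meth 11.69, 11.23, 11.12, 12.73 and 11.64. All Tat-/Meth arrays lay below every array of the other groups, while arrays 4 and 5 of Tat+/Sal and array 4 of Tat+/Meth stood above the rest. The change in Tat-/Meth vs. Tat-/Sal was −1.38 ± 0.36, a 2.59-fold fall (adjusted p = 0.00385), next to the rise of its common counterpart Cox4i1. Cox7a1, the heart and skeletal muscle counterpart of Cox7a2, rose from 9.46 ± 0.04 to 9.84 ± 0.14 (0.37 ± 0.10, adjusted p = 0.00467), with lowest, median and highest arrays of 9.41, 9.46 and 9.52 in Tat-/Sal and 9.74, 9.79 and 10.07 in Tat-/Meth. Its groups did not overlap, but without scaling its change was −0.05. Of the muscle marker list 2 of 5 genes were well above background on all arrays. On the scaled values 2 of its 3 tested probes rose in the same comparison, beside 28.1% of all probes. These were Acta1 (0.29) and Myl2 (0.41), and each change is 0.42 lower without scaling. The third, Tnnt3, differed by −0.75 without passing the test. The part of these markers in the Cox7a1 change was not tested. Cox6a2, the other muscle isoform of a subunit, had a median of 11.87 in Tat-/Sal (11.79 to 12.06) and of 12.04 in Tat-/Meth (11.83 to 12.23), a difference of 0.10 (adjusted p = 0.354). Cox8b had a median of 8.0005 (7.81 to 8.90) against 8.58 (7.79 to 9.35), a difference of 0.40 that did not pass the test (adjusted p = 0.156). The testis-enriched Cox6b2 had a median of 9.38 (9.21 to 9.65) against 9.62 (9.33 to 9.80, adjusted p = 0.0779), and Cox7b2 one of 6.65 (6.63 to 7.23) against 7.04 (6.72 to 7.40, adjusted p = 0.367). Their common counterparts Cox6b1 and Cox7b had medians of 13.51 (13.47 to 13.59) against 13.65 (13.54 to 13.66) and of 16.13 against 16.07. These 4 isoforms overlapped between Tat-/Sal and Tat-/Meth, and apart from Cox4i2 and Cox7a1 no tissue isoform of a subunit was called.

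Probes of a single gene did not always move together. Cox7c, the subunit with 3 probes, read 15.51, 15.37, 15.42, 15.38 and 15.52 with probe 1 in Tat-/Sal and 14.83, 14.99, 14.90, 14.92 and 15.04 in Tat-/Meth. Probe 2 read 14.73, 14.53, 14.62, 14.64 and 14.73 in Tat-/Sal and 15.26, 15.19, 15.11, 15.21 and 15.15 in Tat-/Meth. Neither probe overlapped between the groups, yet probe 1 fell by 0.50 ± 0.07 (adjusted p = 1.87e-05) and probe 2 rose by 0.53 ± 0.06 (adjusted p = 8.29e-07), the latter being 0.11 without scaling (adjusted p = 0.341). Probe 3, the dimmest, fell by 0.63 (adjusted p = 0.0134) with overlapping groups, from 7.96 ± 0.10 to 7.33 ± 0.34. The difference between 2 probes on the same array stays the same when all values of that array are shifted alike, as by percentile or median scaling. Quantile normalization does not shift all probes alike, so it can change this difference, and it was not applied to the pairs. Probe 1 minus probe 2 of Cox7c averaged 0.79 ± 0.04 in Tat-/Sal and −0.25 ± 0.12 in Tat-/Meth, a shift of −1.04 (two-sided exact permutation p = 0.00794, the smallest that 5 against 5 arrays can give, adjusted p = 0.0129 over 13 probe pairs). For Cox8a, the common Cox8 isoform, probe 1 had a median of 17.86 (17.78 to 18.08) in Tat-/Sal and 17.57 (17.43 to 17.62) in Tat-/Meth, and fell by 0.34 (adjusted p = 0.000369), while probe 2 differed by 0.11 (adjusted p = 0.201). The within-array difference of the Cox8a probes went from 0.60 ± 0.07 to 0.16 ± 0.07, without overlap. Over all 13 pairs of probes from 7 genes, the within-array difference did not overlap between Tat-/Meth and Tat-/Sal for 8 pairs, beside 38.3% of all 5686 pairs of tested probes with a shared symbol. Between Tat+/Meth and Tat-/Meth 8 pairs did not overlap either, beside 36.6% of all pairs. The direction of Cox7c, and whether Cox8a fell, are therefore uncertain at the level of the gene, and which transcripts each probe meets was not tested.

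**Figure D2:**
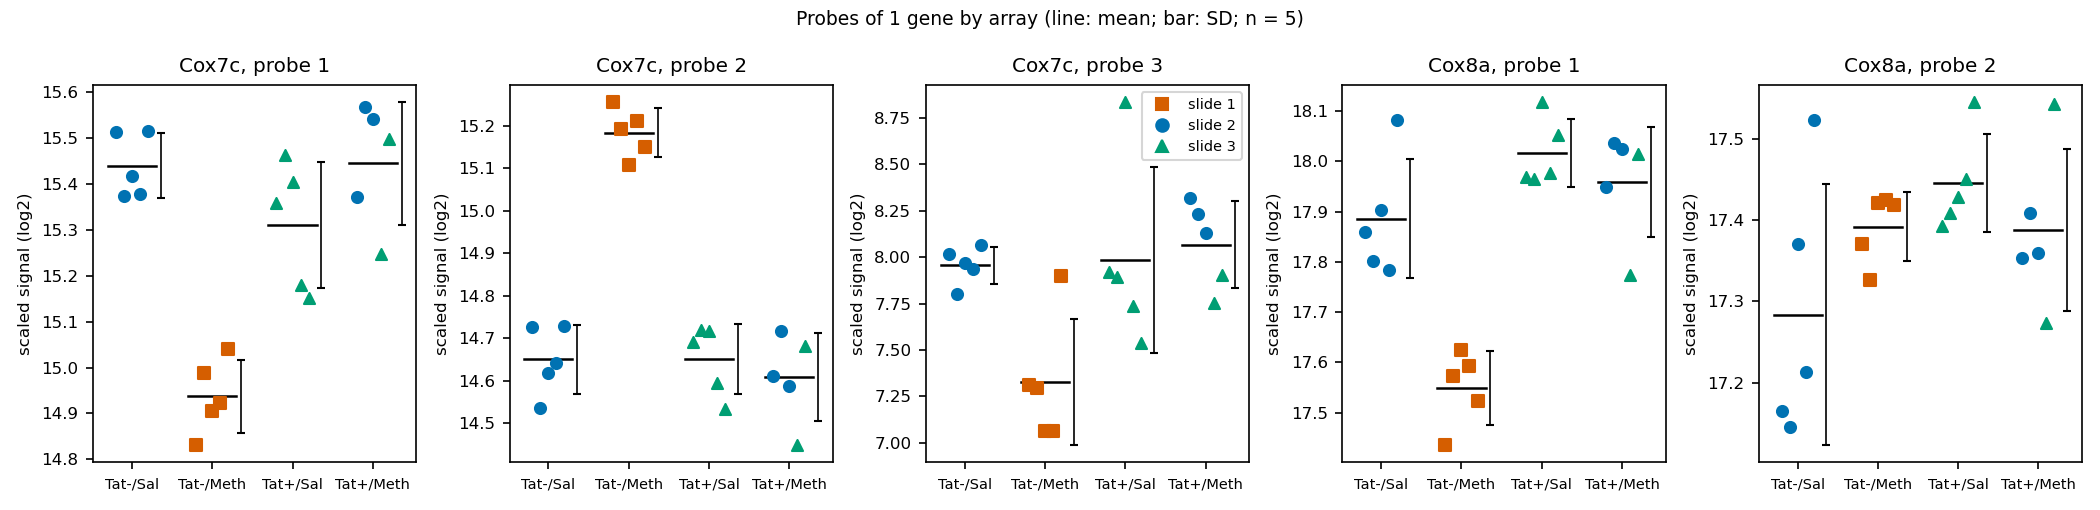
Log2 scaled signal of the 3 Cox7c probes and the 2 Cox8a probes on each of the 20 arrays, with the group mean (line) and SD (bar, n = 5). In Tat-/Meth, Cox7c probe 1 lies at 14.83 to 15.04, below Tat-/Sal, and probe 2 at 15.11 to 15.26, above Tat-/Sal, so the difference between these probes shifted by −1.04.

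Cox7a2l, counted here as the supercomplex factor, rose with all 3 of its probes on the scaled values. Probe 1 read 14.04, 14.13, 14.13, 14.16 and 14.17 in Tat-/Sal and 14.72, 14.69, 14.71, 14.83 and 14.71 in Tat-/Meth, a change of 0.61 ± 0.05 (adjusted p = 3.55e-08). Probe 2 read 16.17, 16.15, 16.19, 16.16 and 16.27 against 16.48, 16.37, 16.31, 16.39 and 16.48 (0.22, adjusted p = 0.0235), and probe 3 rose by 0.36 (adjusted p = 0.000125). None of the 3 probes overlapped between these groups. Without scaling probe 1 stayed above 0, whereas probes 2 and 3 were at −0.20 and −0.06. In Tat+/Sal probe 1 lay at 14.05 to 14.29 and in Tat+/Meth at 14.02 to 14.23, in both below every Tat-/Meth array.

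Among the assembly factors, 6 probes rose, 3 fell and 6 did not pass the test in Tat-/Meth vs. Tat-/Sal, so that 60% were called beside 50.3% of all probes. Those that deliver copper held both the deepest fall and the largest rise among the members. Cox17, the chaperone that carries copper to Sco1 and Cox11 in the intermembrane space, read 9.20, 8.89, 8.85, 8.81 and 9.05 with probe 1 in Tat-/Sal and 6.16, 6.54, 6.92, 6.13 and 6.99 in Tat-/Meth. It read 7.68, 7.94, 7.73, 7.61 and 7.67 in Tat+/Sal and 8.85, 8.96, 9.01, 7.97 and 8.02 in Tat+/Meth. The Tat-/Meth arrays lay lowest, those of Tat+/Sal next and those of Tat-/Sal high, while Tat+/Meth reached from just above Tat+/Sal to within Tat-/Sal. The fall in Tat-/Meth vs. Tat-/Sal was 5.33-fold (−2.41 ± 0.21, adjusted p = 2.9e-08), and over the alternatives run it stayed between −2.83 and −1.70. Cox19, a partner of Cox11 in the copper pathway, rose with no overlap, from 11.83 ± 0.04 to 12.48 ± 0.05 (0.65 ± 0.06, adjusted p = 1.97e-08). It was the only member that still rose past the threshold without scaling, by 0.23 (adjusted p = 0.0253). Cox11, which inserts copper into the B center, rose by 0.39 (adjusted p = 0.000194), and Sco2, a copper metallochaperone of the A center, by 0.42 (adjusted p = 0.000746), though both were near 0 without scaling, at −0.03 and −0.0056. Neither probe of Sco1 was called, with differences of −0.05 and 0.04 (adjusted p = 0.794 and 0.774).

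**Figure D3:**
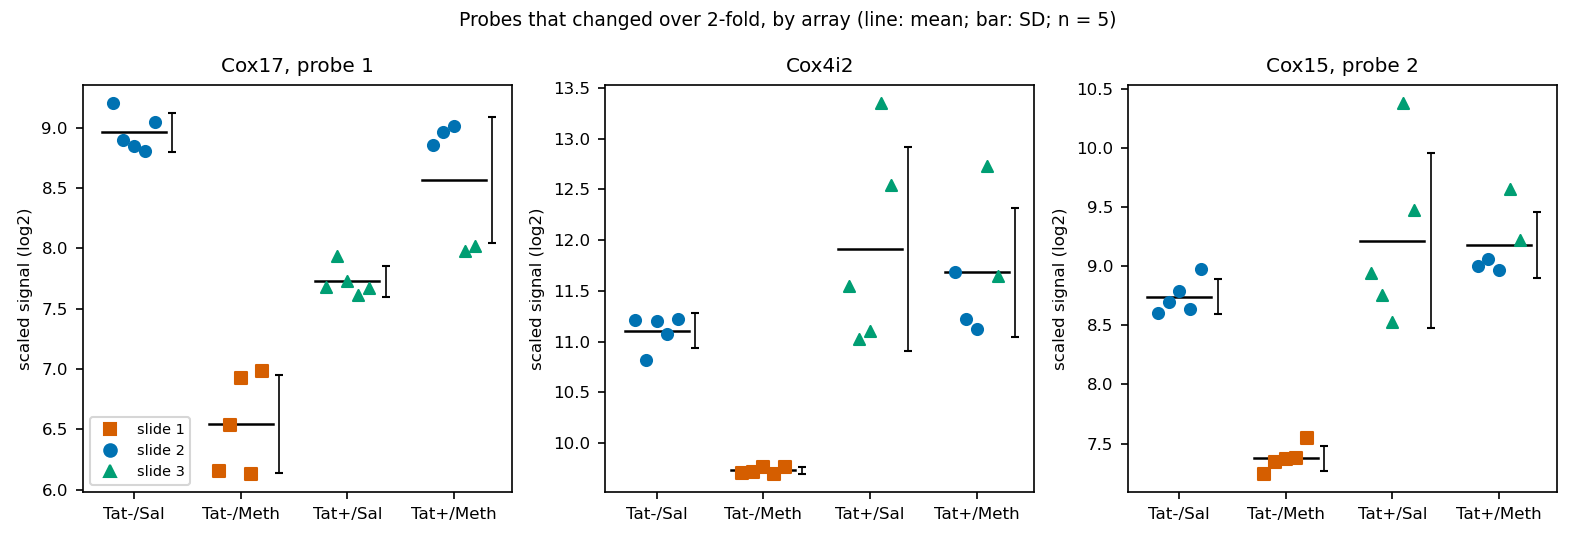
Log2 scaled signal of Cox17 probe 1, Cox4i2 and Cox15 probe 2 on each array, by group and slide, with the group mean (line) and SD (bar, n = 5). The 5 Tat-/Meth arrays, all on slide 1, lie lowest in each panel, at 6.13 to 6.99 for Cox17, and the Tat+/Meth arrays of slide 3 lie below those of slide 2 for Cox17.

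Cox15, which converts heme o to heme a, fell with both probes. Probe 2 read 8.60, 8.70, 8.79, 8.64 and 8.98 in Tat-/Sal and 7.24, 7.34, 7.37, 7.37 and 7.54 in Tat-/Meth, a change of −1.37 ± 0.24, or 2.58-fold lower (adjusted p = 0.000143). In Tat+/Sal it read 8.94, 8.76, 8.53, 10.38 and 9.48 and in Tat+/Meth 9.002, 9.06, 8.97, 9.65 and 9.22, with array 4 highest in both, as for Cox4i2. Probe 1 was tighter and fell by less, from 10.87 ± 0.04 to 10.34 ± 0.05 (−0.53, adjusted p = 2.83e-08), and the size of the fall differed between the probes by 0.83 within arrays. Cox10, which makes heme o in the preceding step, had a mean of 7.63 in both groups (adjusted p = 0.994).

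The factors that insert or mature the mitochondrial subunits rose or were not called. Cox20, a chaperone of the second mitochondrial subunit, rose by 0.46 (adjusted p = 0.00113) from a mean of 13.37. Cox16 probe 2 rose by 0.49 (adjusted p = 4.74e-07) from 12.998 to 13.48, while its dim probe 1 differed by −0.28 (adjusted p = 0.0794), so the gene's direction rests on 1 probe. Cox14, which binds the first mitochondrial subunit, and Cox18, an insertase, differed by 0.20 and 0.12 (adjusted p = 0.0695 and 0.211). Surf1, the heme-handling factor mutated in Leigh syndrome, rose by 0.26 (adjusted p = 0.00119), from 13.08 to 13.34, and was at −0.16 without scaling.

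Cycs, somatic cytochrome c, carries electrons from complex III to complex IV. Its probe 3 read 15.40, 15.41, 15.33, 15.39 and 15.57 in Tat-/Sal and 15.76, 15.75, 15.67, 15.67 and 15.68 in Tat-/Meth, and probe 1 rose from 14.34 ± 0.09 to 14.85 ± 0.08. All 3 probes rose with no overlap between these groups, by 0.51 ± 0.09, 0.39 and 0.29 (adjusted p = 9.48e-05, 0.0103 and 0.00428), but without scaling probes 2 and 3 were at −0.03 and −0.13. In Tat+/Sal probe 3 lay at 15.14 to 15.50 and in Tat+/Meth at 15.13 to 15.49, in both below every Tat-/Meth array. Cyct, the testis form, was not well above background on any array, and 1 of 3 testis marker genes was on all arrays.

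Astrocyte markers moved in the same comparison. Their summed log2 level on the scaled values was 15.24 to 15.53 in Tat-/Meth and 14.9975 to 15.21 in the other groups. All 4 genes (Gfap, Aqp4, Aldh1l1, Slc1a3) were well above background on all arrays. On the scaled values 5 of 7 probes rose in Tat-/Meth vs. Tat-/Sal, beside 28.1% of all probes. A Gfap probe (0.28, adjusted p = 0.306) and an Aqp4 probe (0.19, adjusted p = 0.125) were not called. The median over the 7 probes was 0.31, and each change is 0.42 lower without scaling. Their part in the changes of the members was not tested.

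The promoters of nuclear respiratory genes often hold sites for NRF1, for ETS factors such as GABPA (NRF2) and for YY1, and members with unlike changes were compared for these letters. RefSeq promoter windows (GRCm38.p6, 250 bases before to 50 after the start) were at hand for 25 of the 32 genes, with 26 promoters. The windows of Cox17, Cox4i1, Cox4i2, Cox6a2, Cox6c, Cox8c and Cox18 were not used here. The ETS letters CCGGAAG occurred on either strand in 11 of the 26 windows (42.31%) and in 8.86% of all 32851 windows of that length. The NRF1 letters GCGCATGC occurred in 2 of 26 (7.69%), those of Cox6a1 and Cycs, and in 2.71% of all. The YY1 letters AAGATGG occurred in 3 of 26 (11.54%), those of Cox10, Cox20 and Cox7c, and in 6.34% of all. None of the 5 windows of tissue isoforms held any of these letters. With 8.86%, 2.71% and 6.34% of all windows holding them, 5 windows are too few to show a lack. Such matches describe the letters and not binding. Stretches of 180 bases are shown for Cox6a1, which held 2 of these motifs and whose transcript was not called, Cycs, which rose, Cox7c, whose probes disagreed, and Cox7a1, the muscle isoform with no match.

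Matches on either strand are in capitals, and the overlapping matches of Cox6a1 at its upstream end are the NRF1 letters on both strands.
Cox6a1, chr5:115348949-115349128, minus strand: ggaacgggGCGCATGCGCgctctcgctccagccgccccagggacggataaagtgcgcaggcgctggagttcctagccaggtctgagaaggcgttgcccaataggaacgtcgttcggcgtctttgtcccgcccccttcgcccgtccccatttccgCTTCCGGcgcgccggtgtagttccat
Cycs, chr6:50566560-50566739, minus strand: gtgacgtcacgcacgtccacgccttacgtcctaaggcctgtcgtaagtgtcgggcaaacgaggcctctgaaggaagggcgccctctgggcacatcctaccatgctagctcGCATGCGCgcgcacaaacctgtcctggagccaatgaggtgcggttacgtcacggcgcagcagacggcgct
Cox7c, chr13:86046786-86046965, minus strand: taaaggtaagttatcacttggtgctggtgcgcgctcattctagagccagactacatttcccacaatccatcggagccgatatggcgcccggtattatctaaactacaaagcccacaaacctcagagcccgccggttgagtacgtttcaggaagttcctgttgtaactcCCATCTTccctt
Cox7a1, chr7:30184001-30184180, plus strand: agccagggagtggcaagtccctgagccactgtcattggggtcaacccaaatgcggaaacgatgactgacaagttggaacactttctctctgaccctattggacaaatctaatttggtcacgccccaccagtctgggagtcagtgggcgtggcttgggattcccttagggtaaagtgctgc

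Next, Tat+/Meth vs. Tat-/Meth asked what Tat changed after Meth. This comparison shares the 5 Tat-/Meth arrays with the one above, so the values are given side by side and are not a second observation. Of the 40 member probes 27 changed, 10 higher and 17 lower, beside 53.5% of all probes (23.2% higher and 30.3% lower). The median was −0.16 over the members and −0.09 over all probes. Without scaling each log2 change in this comparison was 0.34 higher. In that setting 6 of the 17 lower probes turned above 0 and 4 were still called lower, while none of the 10 higher probes could turn. The groups did not overlap for 19 probes, 7 higher and 12 lower, against 37.2% of all probes. The 3 rises above 2-fold, against 11.3% of all probes, were Cox17 (2.02 ± 0.21, adjusted p = 2.74e-07), Cox4i2 (1.95 ± 0.36, adjusted p = 0.000179) and Cox15 probe 2 (1.81 ± 0.24, adjusted p = 6.53e-06), where the changes in Tat-/Meth vs. Tat-/Sal had been −2.41, −1.38 and −1.37. Cox5b rose by 0.59 (adjusted p = 7.48e-07) and Cox6c by 0.38 (adjusted p = 0.000594), against −0.53 and −0.40. Cox4i1 fell by 0.43 (adjusted p = 9.63e-07), Cox19 fell by 0.61 (adjusted p = 4.1e-08), Cox7a2l probe 1 fell by 0.62 (adjusted p = 2.62e-08) and Cycs probe 1 fell by 0.68 (adjusted p = 4.35e-06). Cox8b, which had differed by 0.40 without passing the test, fell by 0.66 (adjusted p = 0.0232), from 8.61 ± 0.56 in Tat-/Meth to a mean of 7.95 in Tat+/Meth. Cox14 fell by 0.24 (adjusted p = 0.0348) and was at 0.10 without scaling.

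Tat after saline was compared in Tat+/Sal vs. Tat-/Sal, whose arrays lay on different slides. Only Cox17 was called among the 40 member probes, beside 0.708% of all probes (0.352% lower), and it was also past 2-fold, beside 0.0444% of all probes lower by this measure. At an unadjusted p below 0.05 there were 11 member probes, beside 16.6% of all probes. Cox17 fell by 1.23 ± 0.21 (adjusted p = 0.0277), 2.35-fold, and all 5 Tat+/Sal arrays lay below all 5 Tat-/Sal arrays (two-sided exact permutation p = 0.00794, adjusted p = 0.00992 over 5 comparisons). Any probe whose groups do not overlap gets this p, as 4.53% of all probes did. Cox17 was chosen for the permutation test with its direction known from earlier results, and the adjustment does not cover that choice. The fall was not separable from the slides. With slide as a fixed block it was −0.29 (adjusted p = 1), and the call was also lost without single arrays: adjusted p = 0.109, 0.0875 and 0.0751 without Tat-/Sal 1, 2 or 4, and 0.0547 and 0.113 without Tat+/Sal 4 or 5. The other values nearest to a call were Cycs probe 1, at −0.37 (adjusted p = 0.0542), and Cox15 probe 1, at −0.15 with non-overlapping groups (adjusted p = 0.124), where 4.53% of all probes did not overlap. The 13 probes of ubiquitous subunits differed by −0.13 to 0.16, and their 95% intervals reached from −0.39 to 0.44.

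In Tat+ mice, Meth was compared with saline in Tat+/Meth vs. Tat+/Sal, and 0 member probes were called, as were 0% of all probes (limma, adjusted p below 0.05), and the methods' t-test on the same values also called 0. At an unadjusted p below 0.05 there were 5 member probes, beside 11.5% of all probes. The changes of the 13 ubiquitous subunit probes lay between −0.07 and 0.13, with 95% bounds of −0.33 and 0.50, so a 2-fold change lay outside the intervals of each of them. Cox17 differed by 0.84 ± 0.21 (adjusted p = 0.242), and it alone among the members did not overlap between the groups, beside 2.2% of all probes. Its 2 Tat+/Meth arrays on slide 3 averaged 7.995 against 7.73 for Tat+/Sal on that slide, a difference of 0.27, and its 3 Tat+/Meth arrays on slide 2 averaged 8.94 against 8.96 for Tat-/Sal there. Within Tat+/Meth, slide 3 minus slide 2 was −0.95 for Cox17, a difference reached by 1.34% of all probes, against a median absolute difference of 0.11 over all probes and 0.07 over the members. For Cox4i2 it was 0.84, reached by 1.9% of all probes.

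In Tat+/Meth vs. Tat-/Sal, 0 member probes were called beside 0.00317% of all probes, and 1 member, Cox6b2, had an unadjusted p below 0.05, beside 6.31%. The changes of the ubiquitous subunit probes lay between −0.09 and 0.11, with 95% bounds of −0.30 and 0.53. Cox10 was the member whose groups did not overlap, with means of 7.41 in Tat+/Meth and 7.63 in Tat-/Sal, beside 1.58% of all probes. Cox17 differed by −0.40 (adjusted p = 0.78).

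Whether the change after Meth differed with Tat was tested as an interaction, (Tat+/Meth minus Tat+/Sal) minus (Tat-/Meth minus Tat-/Sal). It was called for 18 member probes, 8 above 0 and 10 below, beside 37% of all probes (19% above and 18.1% below). This split depended on scaling, with 6 above and 16 below after quantile normalization, 2 and 6 after median scaling and 18 and 0 without scaling. Of all probes called without scaling, 1% were below 0. The 2 called above 2-fold, beside 11.7% of all probes, were Cox17 at 3.25 ± 0.30 (adjusted p = 1.27e-07) and Cox15 probe 2 at 1.33 ± 0.34 (adjusted p = 0.00523), while Cox4i2 at 1.14 did not pass the test (adjusted p = 0.0859). Among subunits, Cox4i1 (−0.53, adjusted p = 1.09e-05) and Cox5b (0.54, adjusted p = 0.000173) had interactions of opposite sign on the scaled values, but without scaling Cox4i1 was at −0.04 (adjusted p = 0.784) and Cox5b at 1.03. Slide 1 held a single group, so this interaction cannot be told apart from that slide either.

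**Figure D4:**
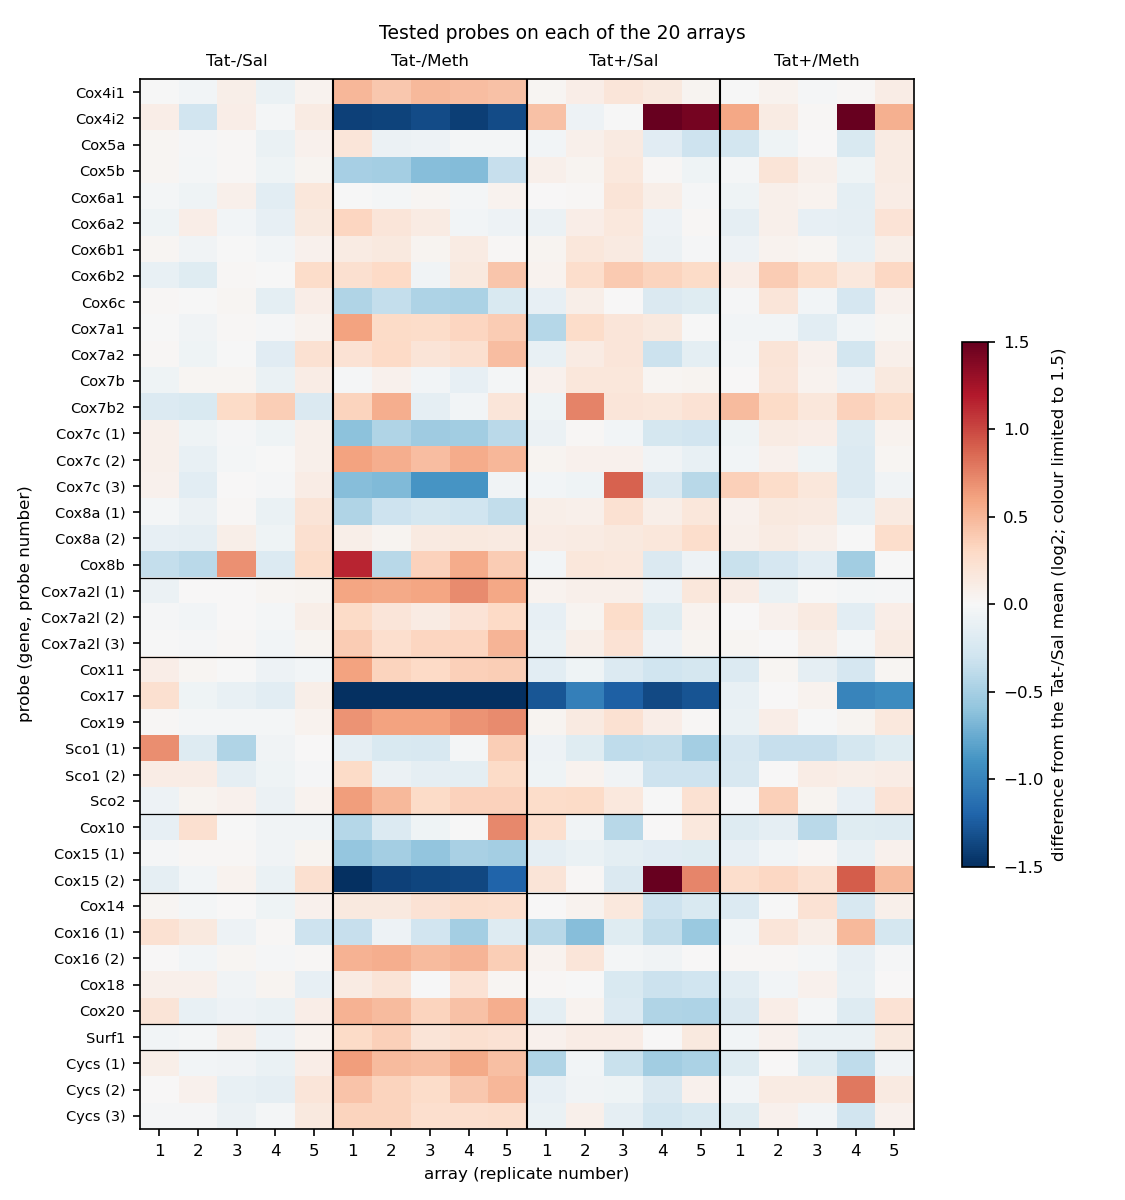
Difference of each array from the Tat-/Sal mean (log2, colour limited to 1.5 either way) for the 40 tested member probes in rows and the 20 arrays in columns, by group. The Tat-/Meth columns carry both higher and lower values, such as 0.46 on average for Cox4i1 and −2.41 for Cox17, and the Tat+ columns stay near 0 for most rows other than Cox17, Cox4i2 and Cox15 probe 2.

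The rest of the respiratory chain was counted from lists of probes in Tat-/Meth vs. Tat-/Sal. Of 22 probes of other complex IV genes, 13 rose and 3 fell (median 0.20), and 0 rose without scaling. On the scaled values 72.7% of them were called, beside 50.3% of all probes, 28.1% higher and 22.2% lower. Among them Hccs, which attaches heme to cytochrome c, was at −0.91 (adjusted p = 1.01e-07). Coa8, an assembly factor, was at −0.78 with 1 of 2 probes (adjusted p = 4.18e-09), and Cmc2 was at 0.61 (adjusted p = 1.28e-06). Beside the 28.1% higher and 22.2% lower of all probes, complex I had 11 higher and 2 lower of 42 probes, complex II 2 and 1 of 6, complex III 2 and 6 of 15 and ATP synthase 2 and 12 of 27. Without scaling these lists had 0 higher and 31, 4, 13 and 25 lower. Under that setting 97.8% of the 15909 called among all probes were lower, and the median of all probes was −0.33. These lists had 31%, 50%, 53.3% and 51.9% of their probes called on the scaled values, where 50.3% of all probes were. On the scaled values the largest changes were those of 1 of the probes of Ndufb6 in complex I (0.66, and −0.01 with its other probe), of Uqcrq in complex III (−0.96, and −0.30 with its other probe) and of Atp5o in ATP synthase (−0.83). Among 17 probes of regulators 6 rose and 2 fell on the scaled values, so that 47.1% were called beside 50.3% of all probes. Without scaling 0 of them rose. The coactivators of mitochondrial biogenesis differed, with Ppargc1b at −1.47 (adjusted p = 1.35e-09) and Ppargc1a at 0.73 with 1 of 2 probes (adjusted p = 3.52e-06), where the other differed by 0.15 (adjusted p = 0.428). In Tat+/Sal vs. Tat-/Sal 1 probe of all these lists was called, Atp5d of ATP synthase, which was higher, and in Tat+/Meth vs. Tat+/Sal 0 were.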

How the data were processed

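Total RNA of 20 mice was hybridised to 20 one-colour Agilent arrays. Dye, labelling kit and scanner differ between the labels and the methods. Per the file headers, the authors deposited Feature Extraction 10.7.3.1 signal intensities, background-subtracted and detrended within each array and not scaled between arrays. The deposited series table of intensities, on a linear scale, equalled the background-subtracted signal plus a constant for 99.8% or more of single-spot probes on every array, and served as an alternative.

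Here, 4278 outlier spots and the control spots were left out, spots of a probe were averaged, and each array's log2 values were shifted so that its 75th percentile met the mean one. Probes were named through the RefSeq accession in the files. A probe was tested with values on at least 3 arrays of each group and a group mean of at least 6. Groups were compared with limma 3.58.1 (lmFit, eBayes; R 4.3.3) on all 20 arrays, with Benjamini-Hochberg adjustment over 31516 probes. Scripts were tested on simulated data. The number of arrays limits the precision.

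Members, lists and alternatives were chosen with earlier results of these data known. Every member gene is named, and array values are given for members changed above 2-fold, for Cox7b, Cox7a2l and Cycs, and for tissue isoform sets. Alternatives covered scaling, background correction, filters, probe summaries, slide blocks, the test, thresholds and leaving out each array.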

Additional observations from a re-analysis of the deposited data

Results flagged for a closer look

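Among 160 sets of a probe and a group, 6 had 1 array far from the other 4 by Dixon's criterion, where chance gives about 1 in 20. Cox10 read 7.23 on Tat+/Meth 3 and 7.43 to 7.499 on the others of its group. Cox11 read 12.54 on Tat-/Meth 1 against 12.23 to 12.29, and Cox5a read 16.93 on the same array against 16.67 to 16.73. Cox7a2l probe 1 read 14.83 on Tat-/Meth 4 against 14.69 to 14.72, and 14.04 on Tat-/Sal 1 against 14.13 to 14.17. Cycs probe 2 read 8.56 on Tat+/Meth 4 against 7.73 to 7.90.

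The change after Meth differed with Tat, by the interaction test of limma, for 18 member probes, beside 37% of all probes. On the scaled values 8 were above 0 and 10 below. Without scaling 18 were above 0 and 0 below, where 1% of all called probes were below 0. Scaled values above 0 were those of Cox17 (3.25, adjusted p = 1.27e-07), Cox15 probe 2 (1.33, adjusted p = 0.00523) and probe 1 (0.65, adjusted p = 4.75e-07), Cox16 probe 1 (0.81, adjusted p = 0.00203), Cox7c probe 1 (0.64, adjusted p = 0.000106), Cox5b (0.54, adjusted p = 0.000173), Cox6c (0.47, adjusted p = 0.00332) and Cox8a probe 1 (0.28, adjusted p = 0.025). Scaled values below 0 were those of Cox19 (−0.72, adjusted p = 1.02e-06), Cox7a2l probe 1 (−0.68, adjusted p = 1.57e-06) and probe 3 (−0.35, adjusted p = 0.00451), Cox7c probe 2 (−0.58, adjusted p = 3.65e-05), Cox16 probe 2 (−0.54, adjusted p = 1.49e-05), Cox4i1 (−0.53, adjusted p = 1.09e-05), Sco2 (−0.51, adjusted p = 0.00348), Cox7a1 (−0.46, adjusted p = 0.0162), Surf1 (−0.35, adjusted p = 0.00259) and Cox11 (−0.30, adjusted p = 0.0263). All of them include the Tat-/Meth arrays of slide 1, and treatment and slide cannot be told apart there. The Tat+ groups also enter. Cox16 probe 1 averaged 7.01 in Tat-/Sal, 6.73 in Tat-/Meth, 6.58 in Tat+/Sal and 7.10 in Tat+/Meth. Cox17 differed by 0.84 between Tat+/Meth and Tat+/Sal.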

How the results depend on the processing

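The direction of calls in comparisons with Tat-/Meth depended on scaling. In Tat-/Meth vs. Tat-/Sal members split into 16 higher and 9 lower, 21 and 8 with quantile normalization, 12 and 5 with median scaling, 20 and 8 with normexp, 15 and 9 with the series table, and 1 and 19 without scaling. In Tat+/Meth vs. Tat-/Meth the split of 10 and 17 became 8 and 21, 5 and 15, 9 and 18, 9 and 15, and 16 and 4. For the interaction the split of 8 and 10 became 6 and 16, 2 and 6, 7 and 11, 8 and 10, and 18 and 0. Of all probes called without scaling, 97.8%, 5.11% and 1% were lower in these 3 tests, in that order. The median of all probes in Tat-/Meth vs. Tat-/Sal was 0.10, and 0.11, 0.22, 0.28 and −0.33 with quantile normalization, median scaling, normexp and no scaling. With probes averaged per gene, 14 genes were called in Tat-/Meth vs. Tat-/Sal, 17 in Tat+/Meth vs. Tat-/Meth and 10 in the interaction, of 29 tested. Median scaling left 8 interactions.

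Member calls in Tat+/Sal vs. Tat-/Sal went from 1 to 2 with quantile normalization, no scaling, a variance trend, the methods' t-test and the replicate block, to 6 with slide as a random block (consensus correlation −0.0586) and to 0 with normexp, the series table, no filter, probes averaged per gene and slide as a fixed block. Past 2-fold the count was 0 under those same 5 settings and at an adjusted p below 0.01 with a 3-fold limit. In Tat-/Meth vs. Tat-/Sal the count past 2-fold was 1 with probes averaged and with the strict limit. For the interaction it was 8 without scaling, 1 with the brightest probe, 0 with probes averaged and 1 with the strict limit.

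Leaving out each array in turn gave 24 to 28 calls in Tat-/Meth vs. Tat-/Sal, 23 to 27 in Tat+/Meth vs. Tat-/Meth, 0 to 2 in Tat+/Sal vs. Tat-/Sal, 17 to 20 for the interaction and 0 to 0 in both other comparisons. Past 2-fold these were 3 to 3, 3 to 3, 0 to 1, 2 to 3 and 0 to 0. The call in Tat+/Sal vs. Tat-/Sal was lost without Tat-/Sal 1, 2 or 4 or Tat+/Sal 4 or 5, and became 2 without Tat+/Sal 2. Arrays of the same replicate number in 2 groups had correlations of deviations from −0.136 to 0.314, with 9 of 30 above 0.1. Arrays of different numbers were not compared in this way, so whether the numbers pair the arrays was not tested. The replicate block gave 25, 27, 2, 19, 0 and 0 calls in the order above.

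Of single values that passed the test before or after, 37 changed sign. Without scaling in Tat-/Meth vs. Tat-/Sal these were Cox11 (−0.030), Cox6a1 (−0.42), Cox6a2 (−0.32), Cox6b1 (−0.33), Cox7a1 (−0.046), Cox7a2 (−0.14), Cox7a2l probes 2 and 3 (−0.20 and −0.065), Cox8a probe 2 (−0.31), Cycs probes 2 and 3 (−0.035 and −0.13), Sco1 probe 2 (−0.38), Sco2 (−0.0056) and Surf1 (−0.16). Without scaling in Tat+/Meth vs. Tat-/Meth they were Cox14 (0.10), Cox5a (0.26), Cox6b1 (0.24), Cox7a2 (0.067), Cox7a2l probes 2 and 3 (0.15 and 0.022), Cox8a probe 2 (0.33), Sco2 (0.016) and Surf1 (0.077). Without scaling in the interaction they were Cox11 (0.18), Cox5a (0.47), Cox6a1 (0.43), Cox6a2 (0.34), Cox6b1 (0.34), Cox7a1 (0.026), Cox7a2l probe 3 (0.14), Cox7b (0.48), Cox8a probe 2 (0.32) and Surf1 (0.14). With quantile normalization Cox5a (0.19) and Cox7b (0.11) turned in Tat-/Meth vs. Tat-/Sal and Cox6a1 (−0.57) in Tat+/Meth vs. Tat-/Meth, and with probes averaged Cox16 (0.13) in the interaction. Without scaling, the difference between the groups' 75th percentiles stays in each value, and treatment and slide cannot be told apart in it. The cause of these changes was not tested. The member probes that were not well above background on any array were not tested.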
